A study of Mus musculus with 17 samples.

Results

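The 38 genes described here encode enzymes of glycolysis and the pentose phosphate pathway, the kinases and subunits that set pyruvate dehydrogenase, and 4 genes of the hypoxia response. They were chosen by gene symbol, and all 38 were among the 22859 genes of the count table. Of them, 37 passed the filter on low counts. The exception was Pdk4, a pyruvate dehydrogenase kinase, which lay between 0 and 1.89 CPM in the 17 libraries and was not tested. CPM, the usual counts-per-million unit, is the count of a gene per 1000000 counts of its library, with library totals scaled by the trimmed mean of M-values (TMM).

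Bulk RNA was sequenced from macrophages that had been sorted out of the synovium, the lining of the joint, of adult Fcgr2b-KO mice. All mice, controls included, lacked Fcgr2b, the receptor that restrains signals from bound IgG, so no wild-type library was compared here, and strain, sex and age in weeks are not given in the labels of these libraries. Mice received immune complexes (IC) of ovalbumin and antibody to it into a vein 8 h before tissue was taken, or were healthy controls, for which the labels name no injection. The MHCII+CD11c+ subset gave 3 control and 2 IC libraries, and the MHCII+CD11c- and the LYVE1+CX3CR1+ subsets gave 3 of each. The labels do not give how many mice went into each of these libraries, so p-values measure the spread between libraries, which may in part be technical.

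Glycolysis splits glucose into pyruvate in the cytosol, and lactate dehydrogenase turns pyruvate into lactate when it is not passed on to the mitochondria. The pentose phosphate pathway branches off after the first step and yields NADPH, which phagocytes use to make reactive oxygen species and to repair oxidative damage, and ribose for nucleotides. HIF-1α is marked for destruction by prolyl hydroxylases while oxygen is present; when it is stable it raises many glycolytic genes, and macrophages stabilize it also during inflammatory activation.

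Libraries held 2301913 to 7248939 counts. A gene at 3 counts or fewer in a library was taken to be at the floor, and floors cover counting error only. The standard errors of fold changes include the spread between libraries. Itgax, which encodes CD11c, was between 0 and 4.68 CPM in LYVE1+CX3CR1+, between 8.24 and 16.05 in MHCII+CD11c- and between 275 and 443 in MHCII+CD11c+ libraries. The macrophage markers Cd68 and Adgre1 were present in every library, but the summed level of 5 macrophage markers was lower in the MHCII+CD11c+ subset, at 1254 to 1569 CPM in controls and 2065 to 2217 after IC, than in the other subsets, where it was 3245 to 5217 CPM in controls and 3646 to 4632 after IC. Fcgr2b itself had 167 to 1168 counts per library, so the table, which gives 1 value per gene, did not show the deletion. In bulk RNA, a change in the make-up of the sorted cells and a change in RNA per cell cannot be told apart.

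Replicate 2 of the controls stood apart from the other control libraries in both MHCII+ subsets, and this bears on most glycolytic genes. Of the 37 members tested, 27 were highest in replicate 2 among the MHCII+CD11c- controls, where 36.7% of all 15272 genes tested were. In the MHCII+CD11c+ controls, 23 members were highest in replicate 2, where 37.9% of all genes were. The 4 genes named next were singled out after their values were seen.

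Egln3, an oxygen-dependent prolyl hydroxylase that is itself a HIF target, had 19.1 CPM in replicate 2 of the MHCII+CD11c- controls and 15.4 CPM in replicate 2 of the MHCII+CD11c+ controls. It was at 0 in the other 4 MHCII+ control libraries. Its fitted fold changes that involve MHCII+ controls rest mainly on these 2 libraries.

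Bnip3, a HIF target that promotes the removal of mitochondria, had 12.4, 64.3 and 17.7 CPM in the 3 MHCII+CD11c- controls and 3.83, 80.2 and 14.4 CPM in the 3 MHCII+CD11c+ controls. Pgk1, phosphoglycerate kinase, had 47.8, 129 and 57.5 CPM and 97.2, 300.2 and 98.7 CPM in the same libraries. Aldoa, the main aldolase of muscle and many other cells, was at 642 CPM in MHCII+CD11c+ control 2 and at 250 and 255 CPM in the other 2. In each case replicate 2 was the highest of its group.

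Among 20 further HIF target genes tested, 13 were highest in replicate 2 of the MHCII+CD11c- controls and 16 in replicate 2 of the MHCII+CD11c+ controls. Vegfa, the vascular growth factor, had 9.81, 55.5 and 2.67 CPM in the MHCII+CD11c- controls and 23.2, 122 and 23.4 CPM in the MHCII+CD11c+ controls. LYVE1+CX3CR1+ control 2 differed less, with Bnip3 at 17.6, 28.9 and 17.6 CPM, Egln3 at 0.315, 0 and 0.140 CPM and 17 of 37 members highest in replicate 2, against 34.7% of all genes.

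Markers of other cells moved with these libraries. The summed level of the 6 markers of LYVE1+CX3CR1+ macrophages was 1903 CPM in MHCII+CD11c- control 2, against 1021 and 1146 in the other 2, and 632 CPM in MHCII+CD11c+ control 2, against 100.2 and 64.3. The summed level of the 5 cycling-cell genes was highest in replicate 2 in all 3 control groups. In MHCII+CD11c+ control 2 the sums of 4 dendritic cell markers (192 CPM, against 553 and 435), 4 monocyte markers (560 against 1177 and 899) and 7 neutrophil markers (77.1 against 273 and 191) were the lowest of the 3. In MHCII+CD11c- control 2, the 4 erythroid markers in the table summed to 15.7 CPM, against 0 in the other 2, and dendritic cell and monocyte markers were again the lowest of the 3, at 89.8 and 232 CPM. Pgk1 was above every LYVE1+CX3CR1+ library, the highest of which had 79.6 CPM, in all MHCII+CD11c+ libraries and not in control 2 alone. Its lowest MHCII+CD11c+ values were 97.2 CPM in controls and 170 CPM after IC. The part of cells carrying these markers in the high glycolytic values of replicate 2 was not tested. After IC, 31 of 37 members were highest in MHCII+CD11c- replicate 1, against 35.7% of all genes.

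**Figure D1:**
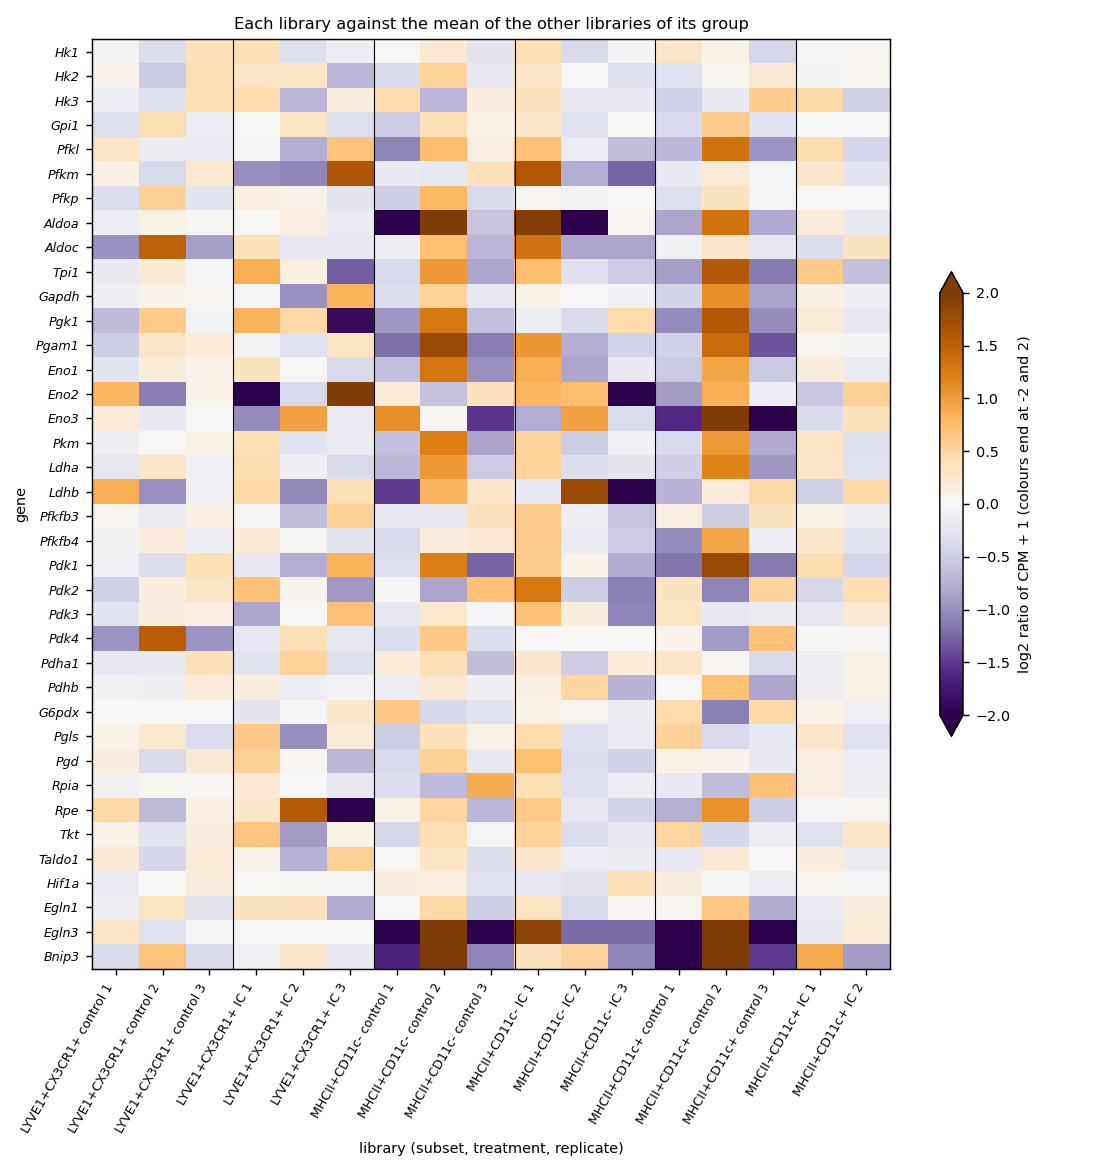
Log2 ratio of each library (columns) to the mean of the other libraries of its group, for the 38 genes (rows), computed on CPM + 1. Replicate 2 of the MHCII+CD11c- and MHCII+CD11c+ controls is high for Aldoa, Pgk1, Pgam1, Eno1, Pkm, Ldha, Pdk1, Egln3 and Bnip3, and Aldoa is low in MHCII+CD11c- control 1 and IC 2.

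The promoters of Egln3, Bnip3 and Pgk1 are shown because these genes were high together in those 2 libraries. Each run is the 250 bases before the RefSeq start on GRCm38.p6, in the direction of the gene, with matches to the core hypoxia response letters ACGTG or GCGTG, on either strand, in capitals. The Egln3 window is chr12:54203875-54204124 on the minus strand, that of Bnip3 chr7:138909507-138909756 on the minus strand, and that of Pgk1 chrX:106186850-106187099 on the plus strand.
Egln3: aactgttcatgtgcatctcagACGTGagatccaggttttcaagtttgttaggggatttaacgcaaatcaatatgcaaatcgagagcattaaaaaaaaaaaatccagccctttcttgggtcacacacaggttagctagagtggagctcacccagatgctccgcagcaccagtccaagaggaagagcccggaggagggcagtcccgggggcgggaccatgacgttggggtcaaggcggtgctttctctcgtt
Bnip3: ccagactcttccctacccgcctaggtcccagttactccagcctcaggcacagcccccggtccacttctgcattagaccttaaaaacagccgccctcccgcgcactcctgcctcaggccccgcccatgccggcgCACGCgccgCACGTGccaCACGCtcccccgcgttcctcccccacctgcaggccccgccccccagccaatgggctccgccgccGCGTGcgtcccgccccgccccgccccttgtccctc
Pgk1: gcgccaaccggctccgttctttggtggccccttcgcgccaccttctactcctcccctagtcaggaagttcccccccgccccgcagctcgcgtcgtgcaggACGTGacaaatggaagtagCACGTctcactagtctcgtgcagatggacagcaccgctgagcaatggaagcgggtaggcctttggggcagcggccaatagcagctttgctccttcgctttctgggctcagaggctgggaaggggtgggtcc

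The Egln3 window held 1 match to ACGTG and none to GCGTG, the Bnip3 window held 2 and 3, and the Pgk1 window held 2 and none. On this search, ACGTG and its reverse complement CACGT share bases where they form CACGTG. Of 53 promoters of the 38 genes, some genes having several starts, 42 held at least 1 of the 2 motifs (79.2%), against 38.6% of 32851 promoters in the table. Both motifs contain CG, and the promoters were not matched for base content. The 2 shares therefore do not set the members apart from other promoters of like base content. A match describes letters in the window, and the data hold no measure of binding.

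Compared between genes per length of their exons, the highest 5 genes by the mean of the 6 group means were Pkm, pyruvate kinase, with 125 CPM per kb, Aldoa with 103, Ldha, lactate dehydrogenase A, with 92.9, Eno1, enolase, with 84.3, and Taldo1, the transaldolase of the pentose phosphate pathway, with 59.7. The lowest 5 were Rpia with 1.52 CPM per kb, Aldoc with 1.32, Egln3 with 0.868, Eno2 with 0.812 and Pdk4 with 0.133. Aldoc and Eno2, best known from neurons, are close relatives of Aldoa and Eno1. Neighbours in this order were not tested against each other.

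**Figure D2:**
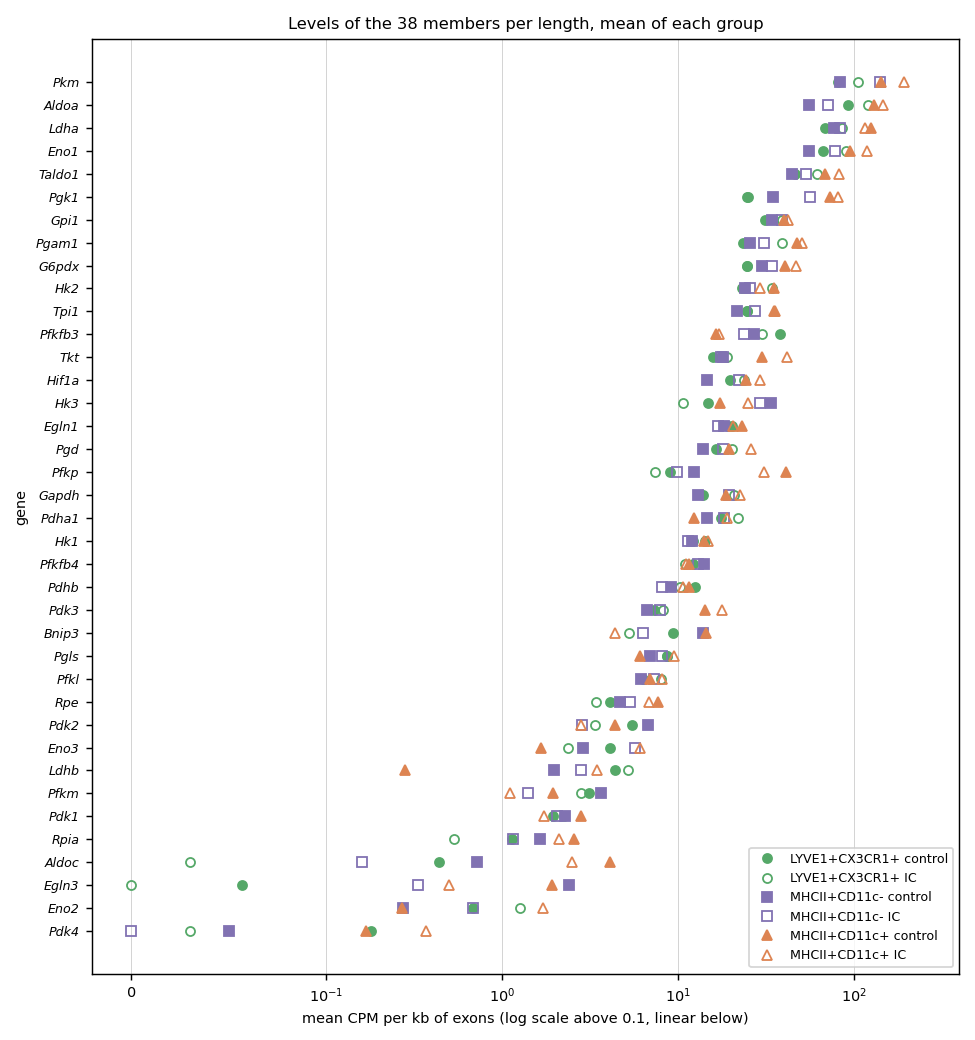
Mean CPM per kb of exons in each of the 6 groups (symbols) for the 38 genes, ordered by the mean of the group means, on an axis that is logarithmic above 0.1 and linear below. Pkm, Aldoa, Ldha and Eno1 are at the top, and among controls Pfkp and Aldoc are higher, and Ldhb lower, in MHCII+CD11c+ macrophages than in the other subsets.

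Aldoa could not be read as a level in every library. It was at 8 counts (1.71 CPM) in MHCII+CD11c- control 1 and at 4 counts (0.824 CPM) in MHCII+CD11c- IC 2, and at 122 to 642 CPM in the other 15 libraries. Of 3671 genes with a median over 50 CPM, 13 had a library under 2 CPM beside another library of the same group over 50 CPM, and Aldoa was the only one of the 38 genes among them. The treatment of reads that match several places is not given in the sources used here. Pseudogenes and close relatives of Aldoa, Gapdh, Eno1, Pgk1 and Ldha have rows of their own in the table, so the levels of these genes are uncertain to that extent.

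Among healthy controls, differences lay mostly between MHCII+CD11c+ macrophages and the other subsets: compared with LYVE1+CX3CR1+ macrophages, the MHCII+CD11c+ subset was higher in Pfkp, Tkt, G6pdx and Aldoc and lower in Pfkfb3 and Ldhb. These were the 6 members called of 37 tested, where 15.2% of all genes were called. Calls are at an adjusted p under 0.05 from edgeR's quasi-likelihood test with Benjamini-Hochberg adjustment over all 15272 genes. The median log2 difference (LYVE1+CX3CR1+ minus MHCII+CD11c+) was -0.50 over the 37 members and 0.05 over all genes, and 11 members were above 0, where 52.4% of all genes were. Without both MHCII+ control replicate 2 libraries the median over the 36 members tested was -0.10, against 0.06 over all genes, and 15 were above 0, where 52.5% of all genes were. Egln3 then failed the filter. Then 6 members were called, of which Pfkp, Tkt, G6pdx and Pfkfb3 were among the 6 called with all libraries, Hk2 and Eno3 were added, and Aldoc (adjusted p = 0.0866) and Ldhb (0.0612) were lost. Here 16.8% of 15009 genes were called. Both libraries were left out after their high values of glycolytic genes had been seen. Calls without them, here and below, are therefore not independent evidence.

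Between MHCII+CD11c+ and MHCII+CD11c- controls, 4 members were called, where 8.66% of all genes were: Pfkp and Hif1a were higher in MHCII+CD11c+, Hk3 and Pfkfb3 lower. Without both replicate 2 libraries, 8 members were called, where 10% of 15009 genes were: Pfkp, Hif1a, Tkt, Eno1, Pgam1 and Pkm higher, Hk3 and Eno3 lower. These calls too come from a setting chosen after seeing the data. The only member called between MHCII+CD11c- and LYVE1+CX3CR1+ controls was Hk3, where 1.56% of all genes were called. After IC, 7 members separated MHCII+CD11c+ from LYVE1+CX3CR1+ macrophages, where 11.9% of all genes did. There were 2 calls between the MHCII+ subsets after IC, where 4.03% of all genes were called, and 1 between MHCII+CD11c- and LYVE1+CX3CR1+ macrophages, where 5.54% were. In these 6 comparisons the share of members called was near that of all genes, so what follows describes single genes.

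More members were higher than lower in MHCII+CD11c+ macrophages. Marker levels differed between the same subsets: in controls the summed dendritic cell markers were at 192 to 553 CPM in MHCII+CD11c+ and 19.5 to 23.3 CPM in LYVE1+CX3CR1+ libraries, monocyte markers at 560 to 1177 and 19.8 to 38.9 CPM, and cycling-cell genes at 486 to 856 and 136 to 316 CPM. All 5 macrophage markers were called lower in MHCII+CD11c+ controls than in those of either other subset, with or without both replicate 2 libraries. The part of these differences in the member values was not tested. Against MHCII+CD11c- macrophages, 27 of 37 members were higher in MHCII+CD11c+ in controls, where 48.1% of all genes were, and 30 after IC, where 48.2% were. Their median log2 differences were 0.43 and 0.37, against -0.03 over all genes in both states. After IC, 8 members were above 0 in LYVE1+CX3CR1+ minus MHCII+CD11c+, where 44.1% of all genes were, but 14 with RLE size factors or library totals alone. LYVE1+CX3CR1+ minus MHCII+CD11c- was above 0 for 18 members in controls, where 49.6% of all genes were, and for 24 after IC, where 42% were. Libraries of the compared groups did not overlap for 16 members between LYVE1+CX3CR1+ and MHCII+CD11c+ controls (37.7% of all genes), 12 between MHCII+ control subsets (27.4%) and 4 between the remaining control pair (21.6%). After IC these counts were 20 (40.9%), 15 (36.6%) and 5 (21.9%).

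Pfkp, the platelet type of phosphofructokinase, had the smallest adjusted p of the members. The gene lies on chromosome 13 from 6579768 to 6648777, minus strand (GENCODE M21 on GRCm38, also for the positions that follow). It had 101, 153 and 106 CPM in LYVE1+CX3CR1+ controls, 129, 230 and 137 in MHCII+CD11c- controls and 471, 636 and 542 in MHCII+CD11c+ controls. After IC it had 105, 103 and 88.4 CPM, 136, 130 and 133 CPM, and 418 and 414 CPM in the same order of subsets. Every MHCII+CD11c+ library was above every library of the other subsets.

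The log2 difference of Pfkp (LYVE1+CX3CR1+ minus MHCII+CD11c+) was -2.19 ± 0.21 (± SE) in controls (adjusted p = 1.2e-07), a 4.58-fold difference, and -2.07 ± 0.23 after IC (adjusted p = 1.36e-06). Against MHCII+CD11c-, MHCII+CD11c+ macrophages were higher by 1.73 ± 0.21 in controls (adjusted p = 8.02e-06) and by 1.64 ± 0.23 after IC (adjusted p = 8.91e-05). None of the alternatives run ended any of these 4 calls. The muscle and liver types of the same enzyme were not called: Pfkm was between 1.93 and 17.8 CPM and Pfkl between 23.2 and 78.4 CPM over all libraries.

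Hk3, a hexokinase of blood cells, was higher in the MHCII+CD11c- subset than in LYVE1+CX3CR1+ macrophages (chromosome 13, 55005985 to 55021385, minus strand). It had 51.2, 47.0 and 64.9 CPM in LYVE1+CX3CR1+ controls, 152, 88.0 and 134 CPM in MHCII+CD11c- controls and 50.4, 58.3 and 82.1 CPM in MHCII+CD11c+ controls. After IC it had 48.0, 27.4 and 42.3 CPM, 126, 98.1 and 99.3 CPM, and 106 and 77.1 CPM. LYVE1+CX3CR1+ and MHCII+CD11c- libraries did not overlap in either state.

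The log2 difference of Hk3 (LYVE1+CX3CR1+ minus MHCII+CD11c-) was -1.19 ± 0.26 in controls (adjusted p = 0.0132) and -1.46 ± 0.26 after IC (adjusted p = 0.00137). The control call was lost without LYVE1+CX3CR1+ control 1 or 2 or without MHCII+CD11c- control 1 or 3 (adjusted p between 0.0551 and 0.101), and the call after IC held under every alternative. MHCII+CD11c+ minus MHCII+CD11c- controls gave -0.98 ± 0.26 (adjusted p = 0.0157), which was lost without MHCII+CD11c- control 1 (0.133) or 3 (0.0718) or MHCII+CD11c+ control 1 (0.0924). This call was lost too with only the groups compared (0.0614). After IC, LYVE1+CX3CR1+ minus MHCII+CD11c+ gave -1.23 ± 0.28 (adjusted p = 0.00497, 0.111 without MHCII+CD11c+ IC 1 and 0.0542 with only the groups compared). The other hexokinases, Hk1 and Hk2, had 81.6 to 143 and 105 to 234 CPM over all libraries and were called in no comparison by edgeR with all libraries. In controls, MHCII+CD11c+ macrophages had more Hk2 than the LYVE1+CX3CR1+ subset by DESeq2 and voom, and by edgeR without both MHCII+ control replicate 2 libraries (LYVE1+CX3CR1+ minus MHCII+CD11c+, -0.65 ± 0.22, adjusted p = 0.0446). Gpi1 and Tpi1, the isomerases of glucose 6-phosphate and of triose phosphate, had 171 to 336 and 34.0 to 177 CPM and were likewise not called, but Tpi1 was called in both control comparisons of MHCII+CD11c+ macrophages with 2 surrogate variables.

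Aldoc, aldolase C, was detected mainly in MHCII+CD11c+ macrophages (chromosome 11, 78322968 to 78327781, plus strand). It had 13, 15.2 and 12.1 CPM in the 3 controls of that subset and 7.05 and 9.16 CPM after IC. The 12 libraries of the other subsets had at most 3.53 CPM, and 4 of them were at 0. The log2 difference (LYVE1+CX3CR1+ minus MHCII+CD11c+) was -3.29 ± 1.08 in controls (adjusted p = 0.0392). After IC all 3 LYVE1+CX3CR1+ libraries were at the floor of 3 counts per library, and the mean of MHCII+CD11c+ macrophages was at least 7.93-fold higher (adjusted p = 0.00917, and 0.0535 without MHCII+CD11c+ IC 2). With only the groups compared, this adjusted p was 0.0572. The control call was lost without LYVE1+CX3CR1+ control 1 (0.167) or 3 (0.168), without any of the 3 MHCII+CD11c+ controls (0.0641 to 0.0803), at equal depth (0.0529) and with 2 surrogate variables (0.0640), which are factors estimated from the counts.

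Ldhb, the lactate dehydrogenase subunit of heart and other oxidative tissues, was at the floor in MHCII+CD11c+ controls with 0, 0.557 and 0.756 CPM (chromosome 6, 142490249 to 142507957, minus strand). LYVE1+CX3CR1+ controls had 10.2, 3.78 and 6.56 CPM, at least 8.83-fold more on average (adjusted p = 0.0259). After IC, MHCII+CD11c+ macrophages had 4.41 and 6.41 CPM and LYVE1+CX3CR1+ macrophages 10.2, 4.41 and 9.96 CPM, and the groups were not called apart. The control call was lost without LYVE1+CX3CR1+ control 1 (0.0992) or 3 (0.0602) or MHCII+CD11c+ control 1 (0.108) or 2 (0.0535). It was lost as well with 2 surrogate variables (0.0903). In MHCII+CD11c+ macrophages the IC libraries were above all controls (unadjusted p = 0.00837, adjusted p = 0.611).

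Pfkfb3, which makes fructose 2,6-bisphosphate, the activator of phosphofructokinase, ran opposite to Pfkp (chromosome 2, 11471433 to 11554077, minus strand). It had 294, 268 and 304 CPM in LYVE1+CX3CR1+, 189, 189 and 241 CPM in MHCII+CD11c- and 133, 97.2 and 146 CPM in MHCII+CD11c+ controls. The 3 control groups did not overlap. The log2 difference (LYVE1+CX3CR1+ minus MHCII+CD11c+) was 1.21 ± 0.22 (adjusted p = 0.000304), and it was called under every alternative run.

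After IC, Pfkfb3 had 230, 166 and 287 CPM in LYVE1+CX3CR1+ and 135 and 126 CPM in MHCII+CD11c+ macrophages, a log2 difference of 0.80 ± 0.25 (adjusted p = 0.0346). This call was lost without LYVE1+CX3CR1+ IC 1 (0.0596) or 3 (0.128) or MHCII+CD11c+ IC 1 (0.150) or 2 (0.268). With 2 surrogate variables (0.0889) or only the groups compared (0.0672) it was lost as well. The difference between MHCII+CD11c+ and MHCII+CD11c- controls was -0.72 ± 0.22 (adjusted p = 0.0375), which was lost without MHCII+CD11c- control 1 (0.0855) or 3 (0.193) or MHCII+CD11c+ control 1 (0.0749) or 2 (0.140). Other losses were with RLE size factors (0.0504), equal depth (0.0577), only the groups compared (0.0744) and without both MHCII+ control replicate 2 libraries (0.133). Pfkfb4, its relative, had 33.2 to 83.0 CPM over all libraries and was not called.

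**Figure D3:**
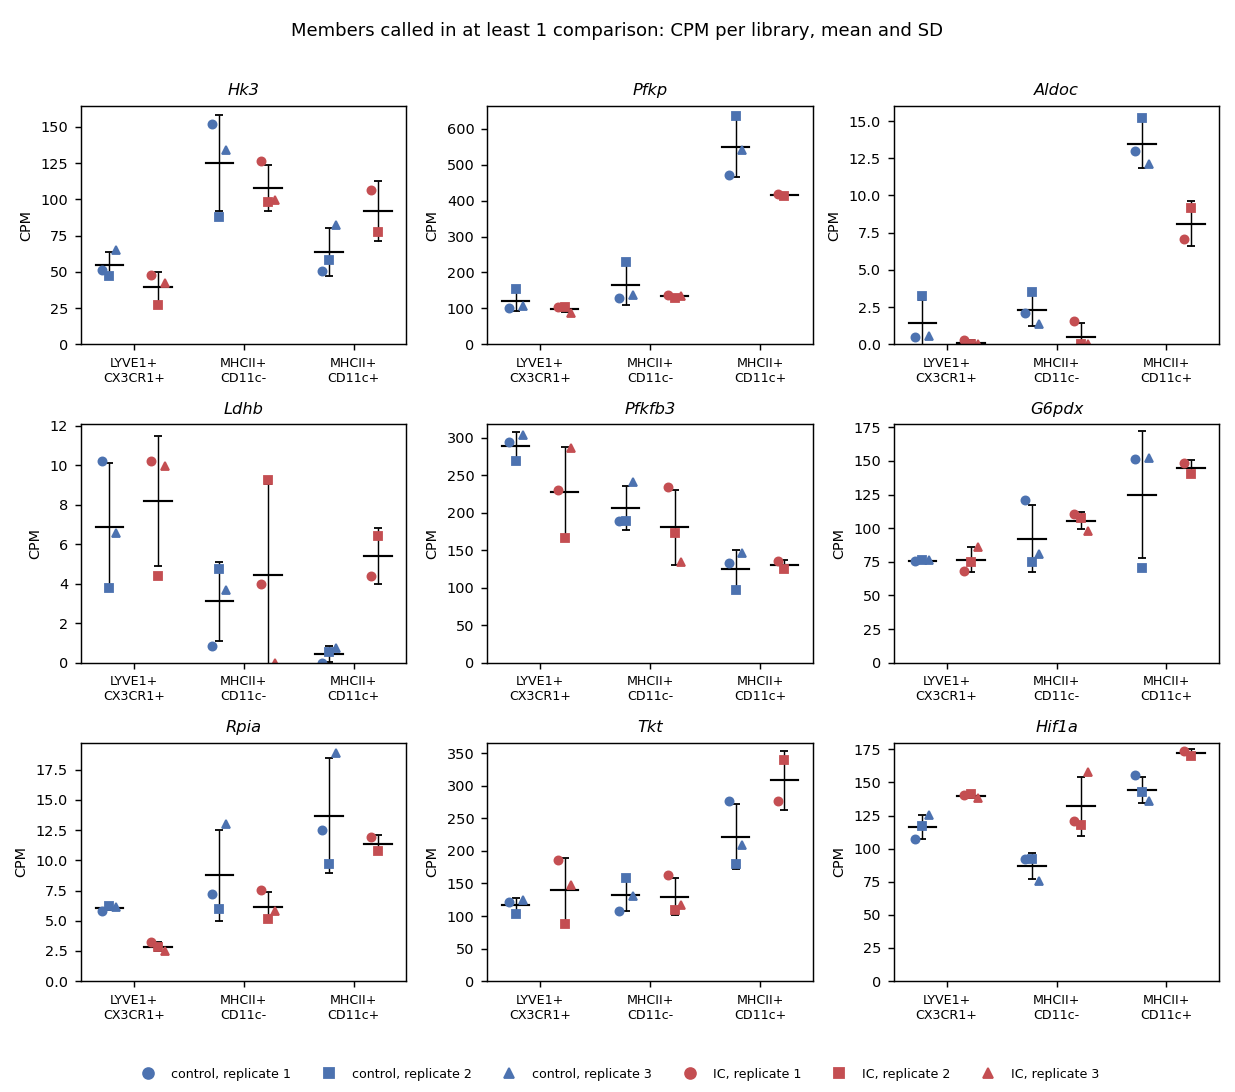
CPM per library (points, shaped by replicate number) in the 6 groups for the 9 members called in at least 1 comparison; lines and bars give the mean and SD (n = 3, and n = 2 for MHCII+CD11c+ after IC). Pfkp and Aldoc are highest in MHCII+CD11c+ macrophages, Hk3 in MHCII+CD11c-, Pfkfb3 in LYVE1+CX3CR1+ controls, and Hif1a is higher after IC in each subset.

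In the pentose phosphate pathway, 2 of 7 members were called between MHCII+CD11c+ and LYVE1+CX3CR1+ controls, both lower in the latter, where 7.4% of all genes were called lower. After IC 3 of 7 were called lower, where 8.42% of all genes were. The median log2 difference of the 7 genes was -0.71 in controls and -0.92 after IC, against 0.05 and -0.12 over all genes. In controls without both replicate 2 libraries it was -0.54.

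Tkt, transketolase of the non-oxidative branch, had 122, 103 and 125 CPM in LYVE1+CX3CR1+ controls, 108, 159 and 130 CPM in MHCII+CD11c- controls and 277, 180 and 209 CPM in MHCII+CD11c+ controls (chromosome 14, 30548359 to 30574720, plus strand). After IC it had 186, 88.1 and 147 CPM, 163, 109 and 118 CPM, and 277 and 340 CPM. MHCII+CD11c+ libraries lay above those of both other subsets in each state.

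The log2 difference of Tkt (LYVE1+CX3CR1+ minus MHCII+CD11c+) was -0.93 ± 0.24 in controls (adjusted p = 0.00776, and 0.0618 without MHCII+CD11c+ control 1) and -1.13 ± 0.26 after IC (adjusted p = 0.00472, and 0.0985 without MHCII+CD11c+ IC 2). With only the groups compared, the adjusted p after IC was 0.0504. After IC, MHCII+CD11c+ macrophages were also above MHCII+CD11c- macrophages, by 1.25 ± 0.26 (adjusted p = 0.00482, and 0.121 without MHCII+CD11c+ IC 2).

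G6pdx, glucose-6-phosphate dehydrogenase, which commits glucose to the pathway, had 75.4, 76.2 and 76.1 CPM in LYVE1+CX3CR1+ controls and 152, 70.4 and 152 CPM in MHCII+CD11c+ controls (chromosome X, 74409483 to 74429194, minus strand). These groups overlapped through MHCII+CD11c+ control 2. After IC it had 67.9, 75.2 and 86.3 CPM against 149 and 140 CPM, with no overlap. The log2 difference was -0.71 ± 0.24 in controls (adjusted p = 0.0442) and -0.92 ± 0.26 after IC (adjusted p = 0.0232).

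The control call of G6pdx was lost without any LYVE1+CX3CR1+ control (0.10 to 0.107), without MHCII+CD11c+ control 1 (0.206) or 3 (0.209) and with 2 surrogate variables (0.472), library totals alone (0.0564), equal depth (0.0634) or only the groups compared (0.0712), and without both MHCII+ replicate 2 libraries its adjusted p was 0.000541. The call after IC was lost without LYVE1+CX3CR1+ IC 1 or 2 or without either MHCII+CD11c+ IC library (0.0590 to 0.138). It was lost as well with DESeq2 (0.0545), RLE size factors (0.0534), library totals alone (0.0583) and equal depth (0.115). In the MHCII+CD11c+ controls, G6pdx and the summed neutrophil, dendritic cell and monocyte markers given above were all lowest in replicate 2. In the 2 MHCII+CD11c+ IC libraries these sums were 25.7 and 29.7 CPM for neutrophil, 166 and 248 for dendritic cell and 747 and 993 for monocyte markers. The part of such cells in the G6pdx values was not tested.

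Rpia, ribose 5-phosphate isomerase, was low throughout and was called by edgeR after IC alone, with 3.22, 2.83 and 2.49 CPM in LYVE1+CX3CR1+ and 11.9 and 10.8 CPM in MHCII+CD11c+ macrophages (chromosome 6, 70765720 to 70792232, minus strand). The groups did not overlap, and the log2 difference was -1.98 ± 0.63 (adjusted p = 0.0409). Of 17 alternatives, 4 kept this call, and it was lost without any 1 of the 5 libraries (0.0556 to 0.218). The other 4 pentose phosphate genes, Pgls, Pgd, Rpe and Taldo1, were called in no comparison by edgeR with all libraries. DESeq2 called Taldo1 in both control comparisons of MHCII+CD11c+ macrophages, and voom called it against LYVE1+CX3CR1+ controls.

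Hif1a, the oxygen-regulated subunit of HIF-1, had 92.6, 92.1 and 75.2 CPM in MHCII+CD11c- controls and 155, 143 and 136 CPM in MHCII+CD11c+ controls (chromosome 12, 73901375 to 73947530, plus strand). The groups did not overlap. The log2 difference (MHCII+CD11c+ minus MHCII+CD11c-) was 0.74 ± 0.17 (adjusted p = 0.00671), and the call held under every alternative run. Its regulator Egln1 had 46.5 to 109 CPM over all libraries and was called in no comparison.

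None of the 5 pyruvate dehydrogenase genes tested was called by edgeR with all libraries. Pdk3, a kinase that restrains the complex, was nearest: it had 16.2, 20.0 and 19.8 CPM in LYVE1+CX3CR1+ controls and 42.3, 33.1 and 34.0 CPM in MHCII+CD11c+ controls, with no overlap (-0.97 ± 0.35, adjusted p = 0.0628). DESeq2 and voom called it. After IC it had 13.5, 21.1 and 28.6 against 42.3 and 48.9 CPM (-1.12 ± 0.38, adjusted p = 0.0569). Over all libraries Pdha1 and Pdhb, subunits of the complex, had 38.6 to 103 and 21.5 to 60.9 CPM, and the kinases Pdk1 and Pdk2 had 8.69 to 42.4 and 4.68 to 29.4 CPM.

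Control and IC libraries are separate samples, so the subset differences of the 2 states can be set side by side. Between LYVE1+CX3CR1+ and MHCII+CD11c+ macrophages, 28 of 37 members had the same sign in both states, against 69.9% of all genes. Pfkp, Tkt, G6pdx, Pfkfb3 and Aldoc were called in both, which is 83.3% of the 6 control calls and 71.4% of the 7 calls after IC. Over all genes, 1198 were called in both, 51.5% of the control calls and 65.7% of those after IC. Across the 37 genes, which are not independent of each other, the correlation of the 2 log2 differences was 0.77, against 0.57 over all genes. Between the MHCII+ subsets only Pfkp was called in both states. That was 25% of the 4 control calls, against 35.7% over all genes, and 50% of the 2 calls after IC, against 76.6%. Between LYVE1+CX3CR1+ and MHCII+CD11c- macrophages the only call, Hk3, was the same in both states. Over all genes, 61.3% of the control calls and 17.3% of those after IC were shared there.

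**Figure D4:**
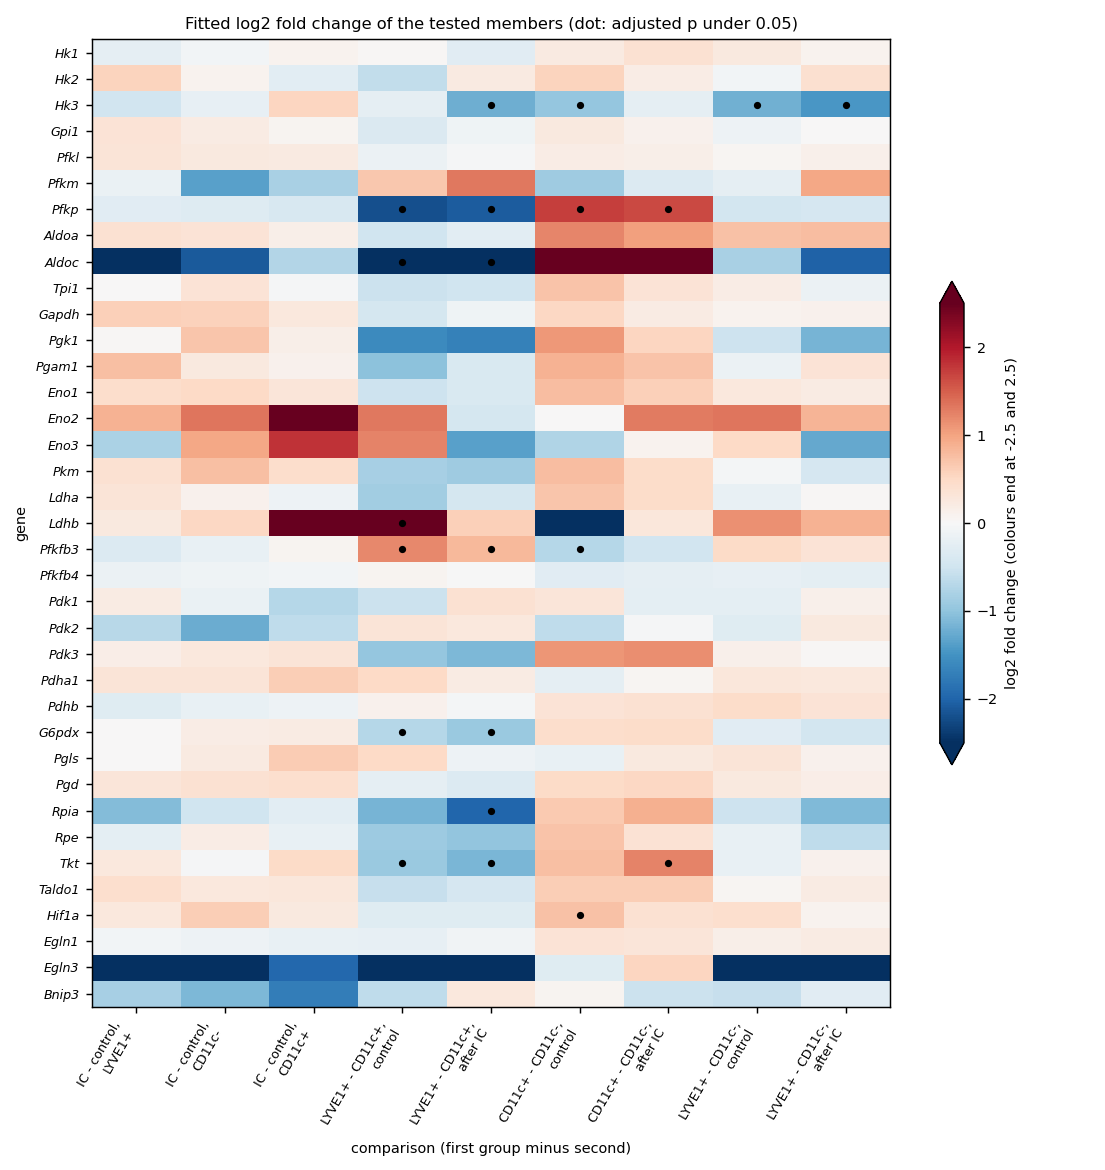
Fitted log2 fold changes (colour, red higher in the first group, blue lower) of the 37 tested genes (rows) in 9 comparisons (columns), with a dot where the adjusted p was under 0.05. Dots are in the columns of subset differences, most of them at Pfkp, Hk3, Tkt and Pfkfb3, and deep colours without a dot belong mostly to Aldoc, Egln3, Eno2, Eno3 and Ldhb, genes at a few CPM.

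Genes around the pathway were taken from lists of 78 genes, of which 70 were in the table and 65 were tested. In controls, 11 of the 65 differed between MHCII+CD11c+ and LYVE1+CX3CR1+ macrophages, 4 being higher and 7 lower in the latter, a share near the 15.2% of all genes called. Without both MHCII+ control replicate 2 libraries, 8 of 62 tested were higher and 8 lower, where 16.8% of 15009 genes were called. Slc2a3, the glucose transporter GLUT3, had 7.40, 9.46 and 10.6 CPM in LYVE1+CX3CR1+ and 72.3, 36.4 and 40.1 CPM in MHCII+CD11c+ controls, a log2 difference of -2.44 ± 0.50 (adjusted p = 0.00124). The MHCII+CD11c- controls had 12.2, 8.31 and 16.4 CPM of Slc2a3, also below every MHCII+CD11c+ control. Slc2a1, the widespread transporter GLUT1, was lower too (-2.24 ± 0.55, adjusted p = 0.0102), with 16.1, 18.6 and 17 CPM against 57, 141 and 45.4 CPM.

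Slc16a6 and Slc16a7, which belong to the monocarboxylate transporter family that carries lactate and pyruvate, were higher in LYVE1+CX3CR1+ controls than in those of the MHCII+CD11c+ subset, by 1.58 ± 0.36 (adjusted p = 0.00355) and 1.29 ± 0.30 (adjusted p = 0.00381). Vegfa, Ndrg1, Hilpda and Ddit4, targets of HIF, were lower in LYVE1+CX3CR1+ controls, and so was Vhl, which tags HIF for destruction. Ddit4 had 2.05, 0.541 and 3.21 CPM in LYVE1+CX3CR1+ and 4.68, 3.53 and 29.1 CPM in MHCII+CD11c+ controls, so that control 3 carried most of its difference. Mxi1 and Rora of the HIF target list were higher. The hypoxia target list thus held 4 lower and 2 higher calls of 20 genes tested, and its median log2 difference was -0.27, or 0.16 without both replicate 2 libraries. Vegfa was highest in replicate 2 of the MHCII+CD11c+ controls, and there was no overlap of the groups for any of these 7 genes.

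Between the MHCII+ control subsets 6 of the 65 genes were called, 1 higher and 5 lower in MHCII+CD11c+, where 8.66% of all genes were called, and none between the other control pair by edgeR, where 4 had an unadjusted p under 0.05, DESeq2 called 0 and voom 2. After IC, edgeR called 5 of the 65 genes between MHCII+CD11c+ and LYVE1+CX3CR1+ macrophages, where 11.9% of all genes were. DESeq2 and voom called 8 each. MHCII+CD11c- and LYVE1+CX3CR1+ macrophages differed in 2 by edgeR, where 5.54% of all genes did, 4 by DESeq2 and 1 by voom. Slc2a3 was the only edgeR call between the MHCII+ subsets after IC, where 4.03% of all genes were called. Its mean was 30.9 CPM in the MHCII+CD11c+ subset against 5.64 CPM in the MHCII+CD11c- subset (2.42 ± 0.55, adjusted p = 0.00931). In that comparison DESeq2 called 6 of the 62 genes it gave an adjusted p, and voom called 11 of 65. The share of all genes called by DESeq2 or voom is not given.

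IC was then compared with control within each subset. By edgeR no member was called in LYVE1+CX3CR1+ macrophages, where 0.963% of all genes were, in the MHCII+CD11c- subset, where 0.701% were, or in the MHCII+CD11c+ subset, where 0.216% were. In the same order, 2, 4 and 3 of the 37 members had an unadjusted p under 0.05. For this and every other count by unadjusted p, the share of all genes is not given. Such counts therefore do not set members apart from all genes. DESeq2 called Hif1a in MHCII+CD11c- macrophages and no other member, and voom called none. Averaged over the 3 subsets, Hif1a was the only member called by edgeR and by voom, and DESeq2 called Aldoc lower after IC as well (adjusted p by edgeR 0.126). By edgeR 3.35% of all genes were called in the average. In each subset and in the average, 22 members were above 0, where 40.3%, 47.8%, 51.1% and 43.3% of all genes were. IC and control libraries did not overlap for 9 members in LYVE1+CX3CR1+ (21.6% of all genes), 3 in the MHCII+CD11c- subset (17.2%) and 12 in the MHCII+CD11c+ subset (23.1%).

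Hif1a was higher after IC in each subset without overlap. It had 108, 117 and 126 CPM in LYVE1+CX3CR1+ controls and 141, 141 and 138 CPM after IC. After IC the MHCII+CD11c- libraries had 121, 118 and 158 CPM and those of the MHCII+CD11c+ subset 174 and 170 CPM, against the control values given above. All 8 IC libraries were thus above every control library of their own subset, which was so for 0.727% of all genes and for no other member. No member was below every control in all 3 subsets, where 0.511% of all genes were.

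The average IC effect on Hif1a was 0.37 ± 0.10 on the log2 scale (adjusted p = 0.0429). By subset it was 0.26 ± 0.17, 0.61 ± 0.17 and 0.25 ± 0.19, with adjusted p of 0.532, 0.117 and 1. Of 27 alternatives, 11 kept the average call, and its adjusted p ranged from 0.00943 to 0.167. It was lost without 10 of the 17 libraries taken singly, which were all 3 LYVE1+CX3CR1+ controls, all 3 MHCII+CD11c+ controls, both MHCII+CD11c+ IC libraries, and replicate 3 of either MHCII+CD11c- group (0.0502 to 0.167).

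Of the 9 genes of lower glycolysis, from Gapdh to lactate, most had a log2 IC effect above 0: 8 in LYVE1+CX3CR1+ macrophages, 9 in the MHCII+CD11c- subset and 8 in the MHCII+CD11c+ subset. The medians were 0.38, 0.57 and 0.31, against -0.14, -0.03 and 0.01 over all genes. In upper glycolysis 5 of 10 genes were above 0 in each subset.

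Pkm had 386, 406 and 423 CPM in LYVE1+CX3CR1+ controls and 629, 462 and 490 CPM after IC. It had 308, 676 and 272 CPM in MHCII+CD11c- controls and 892, 553 and 681 CPM after IC. In MHCII+CD11c+ macrophages it had 593, 1081 and 480 CPM in controls and 1073 and 873 CPM after IC. LYVE1+CX3CR1+ groups did not overlap, and in both MHCII+ subsets control replicate 2 alone reached into the IC range.

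Eno1 had 318, 389 and 373 CPM in LYVE1+CX3CR1+ controls and 567, 488 and 406 CPM after IC, again without overlap. It had 221, 497 and 182 CPM in MHCII+CD11c- controls and 604, 276 and 387 CPM after IC. In MHCII+CD11c+ macrophages it had 395, 755 and 395 CPM in controls and 672 and 603 CPM after IC. Gapdh, glyceraldehyde-3-phosphate dehydrogenase, did not overlap in MHCII+CD11c- macrophages, with 45.2, 68.0 and 48.5 CPM in controls and 83.4, 80.3 and 77.3 CPM after IC.

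With all libraries, the average IC effects were 0.52 ± 0.20 for Pkm (adjusted p = 0.173), 0.41 ± 0.22 for Eno1 (0.363), 0.47 ± 0.17 for Gapdh (0.138), 0.37 ± 0.31 for Pgam1 (0.616) and 0.10 ± 0.19 for Ldha (0.852). Without the 2 MHCII+ control replicate 2 libraries, 6 members were called in the average, all higher after IC, where 6.04% of 15009 genes were: Pkm (0.86 ± 0.11, adjusted p = 2.71e-05), Eno1 (0.75 ± 0.13, 0.000969), Pgam1 (0.90 ± 0.18, 0.00332), Gapdh (0.71 ± 0.16, 0.00631), Ldha (0.43 ± 0.12, 0.0280) and Hif1a (0.40 ± 0.11, 0.0335). Pkm and Eno1 were then also called within the MHCII+CD11c- subset, where 1.78% of these genes were, and Pkm within MHCII+CD11c+ macrophages, where 1.04% were. These 2 libraries were left out after their high values of glycolytic genes had been seen, and removing high controls raises the IC effect of the same genes, so the calls without them are not independent evidence. In LYVE1+CX3CR1+ macrophages no member was called either way, with 1.11% of all genes called without them.

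**Figure D5:**
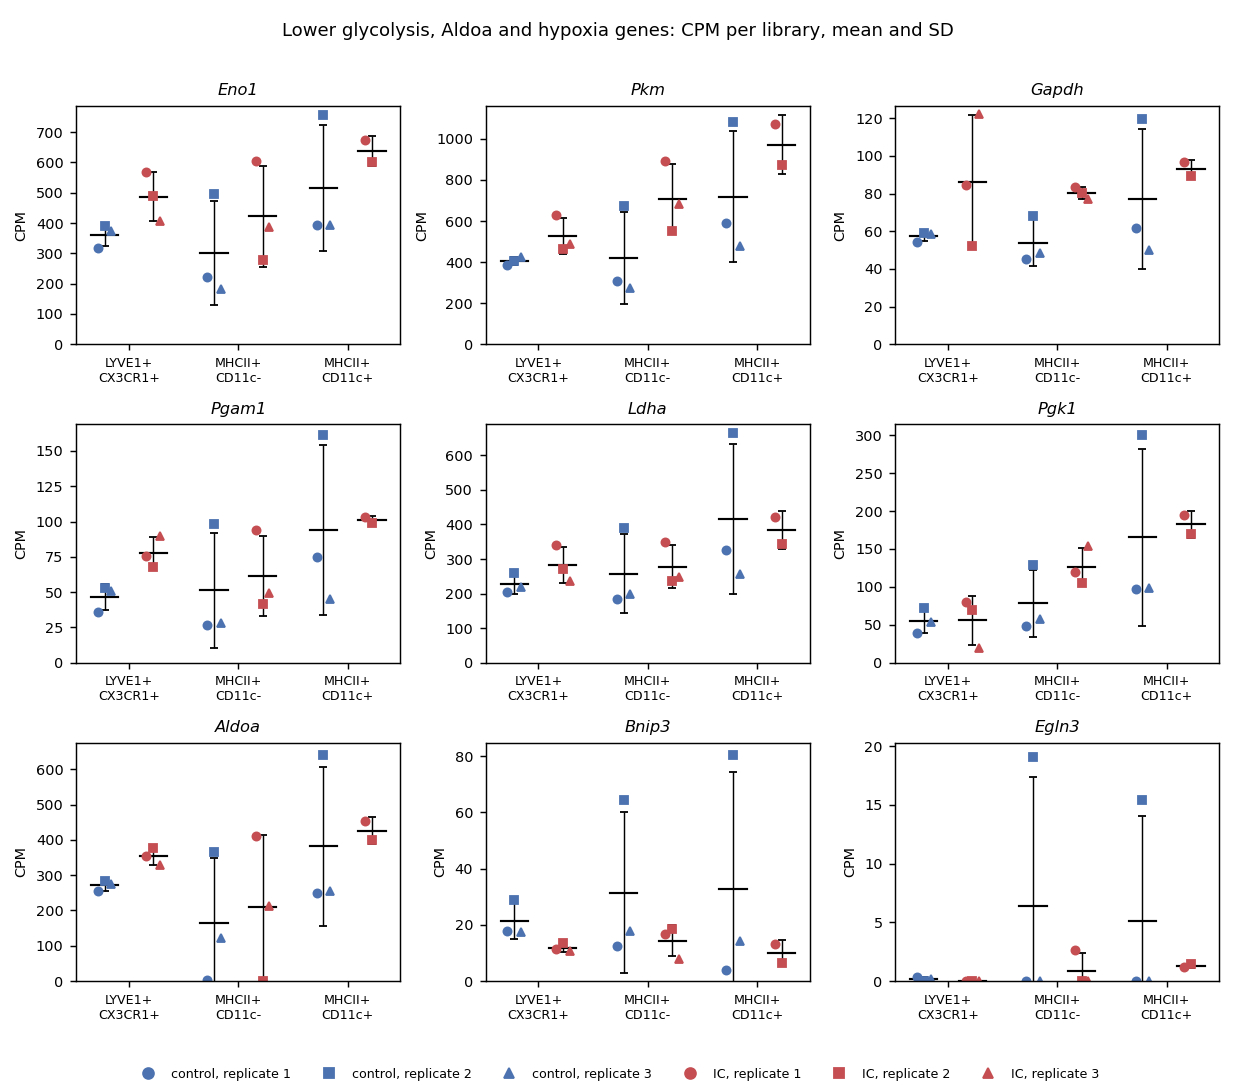
CPM per library (points, shaped by replicate number) in the 6 groups for 6 genes of lower glycolysis and for Aldoa, Bnip3 and Egln3; lines and bars give the mean and SD (n = 3, and n = 2 for MHCII+CD11c+ after IC). The squares of control replicate 2 are at the top of both MHCII+ control groups in all 9 panels, and in LYVE1+CX3CR1+ macrophages Eno1, Pkm and Pgam1 are higher in every IC library than in every control.

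The other 3 hypoxia members, Egln1, Egln3 and Bnip3, were not called. Bnip3 had 17.6, 28.9 and 17.6 CPM in LYVE1+CX3CR1+ controls and 11.4, 13.5 and 10.8 CPM after IC, with no overlap and a log2 effect of -0.83 ± 0.85 (adjusted p = 0.737). Egln3 was at 0 in all 3 LYVE1+CX3CR1+ IC libraries and at most 2.66 CPM in the other IC libraries. Of the 65 further genes of the pathway lists, none was called by edgeR in any subset or in the average, with 6, 8, 4 and 10 at an unadjusted p under 0.05. DESeq2 gave an adjusted p to 63, 44, 32 and 65 of these genes and called 1, 0, 0 and 1. The rest could not be called by it. By voom 0, 0, 0 and 1 of 65 were called. The share of all genes called by DESeq2 or voom is not given. Without both MHCII+ control replicate 2 libraries, edgeR called 1, 1, 1 and 4 of 62, all higher after IC. Of 15009 genes, 1.11%, 1.78%, 1.04% and 6.04% were then called, so the counts were near the share of all genes. This setting was chosen after seeing the data.

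IC effects were then compared between subsets. By edgeR no member was called for a difference of IC effects. Of all genes, 0.0262% were called between LYVE1+CX3CR1+ macrophages and the MHCII+CD11c- subset, 0.0327% between LYVE1+CX3CR1+ macrophages and the MHCII+CD11c+ subset, and 0% between the MHCII+ subsets. In this order 0, 3 and 0 members had an unadjusted p under 0.05, and DESeq2 and voom called none. The 3 were Hk2, Hk3 and Ldhb. Hk2, an inducible hexokinase, had 142, 105 and 165 CPM in LYVE1+CX3CR1+ controls and 234, 233 and 145 CPM after IC, and 183, 214 and 234 CPM in MHCII+CD11c+ controls and 171 and 178 CPM after IC. The adjusted p of its difference was 0.470.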

How the data were processed

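For each library the authors used 5 ng of RNA and a stranded low-input kit. Reads were trimmed by the authors with Trim Galore and aligned to mm10 by HISAT2, and featureCounts gave the deposited counts, which are whole numbers and not normalized. Whether counting used the strand, how it treated reads with more than 1 alignment, and versions are not given in the sources used here. Genes on the opposite strand overlap Pfkp, Hk3, G6pdx, Hif1a and Pfkfb3 and may share their reads. On the same strand, other genes overlap Hif1a, Pfkfb3 and Tkt. Members not called by edgeR with all libraries, Pkm, Gapdh and Tpi1 among them, have overlapping genes too. Of the table's columns, 1 matched no label and was left out.

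Genes were kept by filterByExpr (minimum count of 10), which left 15272, and edgeR 4.0.16 in R 4.3.3 fitted all 17 libraries together, with 6 group means (TMM, glmQLFit, 11 residual degrees of freedom). Benjamini-Hochberg adjustment ran over all genes of a contrast, and errors of fold changes are standard errors. The 13 contrasts were IC against control by subset and on average, pairs of subsets in each state, and differences of IC effects. Alternatives were DESeq2 1.42.0, voom of limma 3.58.1, other scalings, no filter, equal depth, surrogate variables from sva 3.50.0, replicate blocks, only the groups compared, and each library left out. The fit was tested on simulated data. The members and lists were chosen with earlier results of these data known, and leaving out both MHCII+ control replicate 2 libraries was added after seeing the data. Values of every library are given for called members, those without overlap first, and for genes singled out in the text. Other genes are named where called or where a result turns on them, and the level order gives the 5 highest and 5 lowest members. Gene positions are those of GENCODE M21, which matched 22266 of 22859 symbols.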

Additional observations from a re-analysis of the deposited data

How the results depend on the processing

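With 2 or 3 libraries a group, depths of 2301913 to 7248939 counts and a biological coefficient of variation of 45.1%, small differences were not detectable. Of 1253 alternative values of 67 member fold changes, 1034 kept direction and side of the threshold, 90 lost and 124 gained a call, and 5 reversed. The cause of the changes below was not tested, except that leaving out a library leaves fewer samples. Log2 LYVE1+CX3CR1+ minus MHCII+CD11c+ in controls turned to 2.80 for Egln3 (lowest -5.55), 0.031 for Gapdh (lowest -0.66) and 0.22 for Tpi1 (lowest -0.82) without MHCII+CD11c+ control 2, and to 0.17 for Tpi1 without both MHCII+ control replicate 2 libraries. MHCII+CD11c+ minus MHCII+CD11c- for Tpi1 in controls turned to -0.038 without MHCII+CD11c+ control 2 (highest 1.16).

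The number of members called was 0 for IC in MHCII+CD11c- macrophages, but 1 with DESeq2 and 2 without both replicate 2 libraries, a setting chosen after seeing the data; in the MHCII+CD11c+ subset the latter gave 1. For the average IC effect the 1 call became 2 with DESeq2, 6 without both replicate 2 libraries, and 0 with library totals alone, upper quartile factors, no filter, equal depth or 2 surrogate variables. MHCII+CD11c- against LYVE1+CX3CR1+ controls gave 2 with voom. The 6 calls between MHCII+CD11c+ and LYVE1+CX3CR1+ controls became 13 with DESeq2, 12 with voom, and 10 with RLE size factors, 2 surrogate variables or only the groups compared. The 4 between MHCII+ controls became 8 with DESeq2, 7 with voom, 12 with 2 surrogate variables and 8 without both replicate 2 libraries. After IC, the 7 became 3 with only the groups compared and 8 with a block within treatment. They became 9 without both replicate 2 libraries and 10 with 2 surrogate variables. The 2 between MHCII+ subsets became 4 with DESeq2 and 5 with voom. The share of all genes called under each tool or setting is not given beside these counts or those below. A higher count therefore does not show that members differed more than other genes.

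Leaving out 1 library at a time gave 0 to 1 calls for IC in MHCII+CD11c- macrophages (1, Pkm, without control 2) and 0 to 3 for the average (3 without LYVE1+CX3CR1+ IC 2 or MHCII+CD11c- control 2). In controls it gave 0 to 1 for LYVE1+CX3CR1+ against the MHCII+CD11c- subset, 2 to 6 for LYVE1+CX3CR1+ against the MHCII+CD11c+ subset (2 without MHCII+CD11c+ control 1) and 2 to 10 between MHCII+ subsets (10 without MHCII+CD11c- control 2). After IC it gave 2 to 6 for the 7 calls (2 without MHCII+CD11c+ IC 2) and 1 to 3 between MHCII+ subsets. With RLE size factors the median of all genes for the difference of IC effects between LYVE1+CX3CR1+ and the MHCII+CD11c+ subset moved from -0.21 to -0.04.

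Replicate numbers were not used as pairs in the main fit. Correlations of deviations of same-numbered libraries were 0.00129 to 0.286 within a treatment, over 0.1 in 2 of 16 pairs. Between IC and control they were -0.153 to 0.0817. Between both MHCII+ control groups they were 0.0796 to 0.286 for same numbers and -0.150 to 0.0511 for different numbers. Values above 0.1 were not limited to same numbers. MHCII+CD11c- IC 1 gave 0.196 with MHCII+CD11c- control 2 and 0.201 with MHCII+CD11c+ control 2. Whether same-numbered libraries share mice was not tested. With the replicate block the average IC effect had 0 calls, and with a block within treatment the control comparisons of MHCII+CD11c+ macrophages had 10 against LYVE1+CX3CR1+ and 8 against the MHCII+CD11c- subset.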
